A study of Mus musculus with 16 samples.

Results

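RNase MRP and RNase P are related ribonucleoprotein enzymes that share most of their protein subunits. RNase MRP cleaves precursor ribosomal RNA in the first internal transcribed spacer, and its RNA component is encoded by Rmrp. RNase P removes the 5′ leader of precursor tRNAs, and its RNA component is encoded by Rpph1. Both RNAs are products of RNA polymerase III. The genes described here are the RNA Rmrp and 9 protein subunit genes (Pop1, Pop4, Pop5, Pop7, Rpp14, Rpp25, Rpp30, Rpp38 and Rpp40). They were chosen by name because Rmrp was the most abundant gene of several libraries, so its levels are a description with no test. Of these 10 genes, 9 had a row among the 13100 genes used, and Pop5 was not analysed here. All 8 protein genes with a row passed the filter of at least 1 FPKM (fragment numbers scaled to the length of the transcript and the size of the library) in at least 2 libraries.

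The study compared RNA of spermatogenic cell types sorted from C57BL/6J males, 8 weeks of age, with and without Tex10. The 16 polyA-enriched bulk libraries formed 8 groups of 2. Cell types by sample title were spermatogonia, MI spermatocytes, MII spermatocytes and spermatids, each from wild-type mice and from Tex10f/-; Stra8iCre mice. In the latter, called Tex10-deficient here, 1 Tex10 allele is floxed and the other is missing in all cells, and the Cre is driven by the Stra8 promoter, which is active in premeiotic germ cells. The controls are described only as WT, and how the cells were sorted is not stated. Nothing says whether the 2 replicates are separate animals, and the p-values therefore measure the spread between libraries, which may be technical.

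Tex10 stood at 13.8 to 116 FPKM in the wild-type libraries and at 7.29 to 34.8 FPKM in the Tex10-deficient ones. Within each cell type the genotypes did not overlap, a separation that 27.5% to 36.4% of all genes also showed. By limma, with p adjusted over all genes, Tex10 was called lower in MI (log2 change -2.17, adjusted p = 0.012). It was not called in spermatogonia (-1.65, adjusted p = 0.10), MII (-1.24, adjusted p = 0.095) or spermatids (-1.66, adjusted p = 0.23). Averaged over cell types it was called (-1.68, limma adjusted p = 0.00049). For 6 of 8 Tex10-deficient libraries the labels' cell type field names another type than the title, and values grouped by that field are given with the processing. That field puts libraries of different titles into one group. In Tex10-deficient cells the high Leydig and spermatid marker sums, given below, each fell in both libraries of the same title, MII and spermatids. Sums over marker genes showed that the libraries titled MII spermatocytes hold RNA of somatic cells. The 6 Leydig cell markers (6 of 6 with a row, none at 0 in both libraries of any group) summed to 876 to 1442 FPKM there and to at most 219 FPKM elsewhere. The 8 spermatocyte markers summed to 107 to 641 FPKM in those libraries, against 2105 to 3908 FPKM in the MI libraries and 3049 to 4182 FPKM in spermatids. Spermatogonia markers (7 of 8 with a row) summed to 252 to 325 FPKM in wild-type spermatogonia, against at most 188 FPKM in other wild-type libraries. In Tex10-deficient spermatogonia they summed to 182 to 234 FPKM, which overlaps with MI (104 to 209 FPKM) and spermatids (155 to 251 FPKM) of that genotype. Spermatid markers (8 of 8 with a row) summed to 8358 to 11405 FPKM in wild-type spermatids. They summed to 4728 to 4877 FPKM in Tex10-deficient spermatids and to at most 659 FPKM elsewhere. The Leydig markers summed to 20.4 to 219 FPKM in Tex10-deficient spermatids, against 14.4 to 75.1 FPKM in wild-type ones. The part of these differences in comparisons of spermatids between genotypes was not tested. Immune markers (7 of 7 with a row) summed to 199 to 463 FPKM in spermatogonia and MII libraries and to 2.09 to 16.1 FPKM in MI and spermatid libraries. In bulk libraries such as these, fewer cells of a type and less RNA per cell cannot be told apart.

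Rmrp lies on chromosome 4 at 43492783 to 43493063, minus strand (GRCm38, GENCODE M21), as a single-exon gene of 281 bases annotated as lincRNA, with a second annotation as a ribozyme of 271 bases at 43492788 to 43493058. Ccdc107, a protein-coding gene on the plus strand at 43492900 to 43495921, starts within it. Both RNAs are printed because the abundance of the first, and the behaviour of the second beside it, carry much of what follows. Sequences are from the transcripts of GENCODE M21, 5′ to 3′. In Rmrp the capitals mark bases 41 to 164, the 124 bases that lie in Ccdc107 exons on the opposite strand.
Rmrp: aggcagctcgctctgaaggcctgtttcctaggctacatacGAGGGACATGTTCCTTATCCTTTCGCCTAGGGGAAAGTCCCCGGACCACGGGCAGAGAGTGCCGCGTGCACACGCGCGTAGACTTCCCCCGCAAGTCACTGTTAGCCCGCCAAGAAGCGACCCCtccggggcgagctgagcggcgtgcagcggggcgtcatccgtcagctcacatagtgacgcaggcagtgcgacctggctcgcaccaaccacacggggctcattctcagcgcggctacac
Rpph1 (bases 1 to 300): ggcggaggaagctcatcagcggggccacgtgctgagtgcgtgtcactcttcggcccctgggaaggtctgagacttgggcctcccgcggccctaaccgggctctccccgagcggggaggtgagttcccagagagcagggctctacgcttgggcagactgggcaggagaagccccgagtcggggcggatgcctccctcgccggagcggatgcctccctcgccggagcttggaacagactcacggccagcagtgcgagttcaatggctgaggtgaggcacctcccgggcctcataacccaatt
Rpph1, at 50807449 to 50807767 on the minus strand of chromosome 14, spans 319 bases. Both are GC-rich, with 63.7% G or C in Rmrp and 67.1% in Rpph1. The longest run of A in Rmrp is 3 bases and in Rpph1 2 bases, so neither annotated sequence contains a stretch of A. Mature RNase MRP RNA is not polyadenylated in the way mRNAs are, and the level given for it is that in polyA-enriched libraries. No source used here says whether counting was by strand, so reads of Rmrp and of Ccdc107 cannot be told apart over the capitals. Ccdc107, whose longest transcript has 942 bases, stood at 0 to 13.5 FPKM in the 16 libraries.

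Rmrp was most abundant in spermatogonia. Wild-type spermatogonia held 11037 and 7559 FPKM, and Tex10-deficient spermatogonia held 12425 and 15528 FPKM. Of these 4 libraries, the second wild-type one stood below 1 library of another type, the first replicate of Tex10-deficient MII spermatocytes, and the others stood above all libraries of other types. The MII libraries came next, with 4790 and 1941 FPKM in the wild type and 8706 and 912.6 FPKM in Tex10-deficient cells. The 4 MII values thus spread widely within each genotype. MI spermatocytes held 1406 and 127.1 FPKM in the wild type and 1734 and 201.7 FPKM in Tex10-deficient cells. In both genotypes 1 MI library was high and the other was near the spermatids. Spermatids were lowest, with 151.8 and 113.7 FPKM in the wild type and 265.3 and 186.6 FPKM in Tex10-deficient cells. The highest library of all stood 136.6-fold above the lowest.

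**Figure D1:**
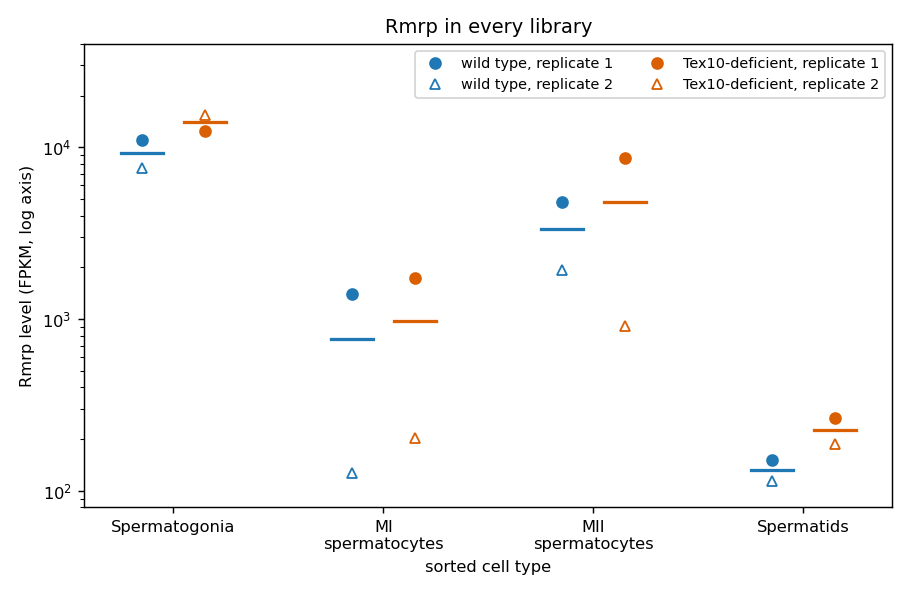
Rmrp level in FPKM on a log axis for each of the 16 libraries by sorted cell type, with filled circles for replicate 1, open triangles for replicate 2 and a line at the group mean, wild type in blue and Tex10-deficient in orange. Spermatogonia lie highest at 7559 to 15528 FPKM and spermatids lowest at 113.7 to 265.3 FPKM, while the MI pairs and the Tex10-deficient MII pair lie far apart.

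The group means had the same order in both genotypes, spermatogonia above MII, MI and spermatids. In the wild type, spermatogonia stood 12.1-fold above MI spermatocytes, 2.76-fold above MII spermatocytes and 70.1-fold above spermatids, with no overlap of libraries in any of these pairs. In Tex10-deficient cells the same ratios were 14.4, 2.91 and 61.9, again with no overlap. The share of all genes separated in this way between cell types was not counted. With 2 libraries a group such separation is common, and the genotypes alone did not overlap for 27.5% to 36.4% of all genes. MII stood above MI by 4.39-fold in the wild type, where the libraries did not overlap, and by 4.97-fold in Tex10-deficient cells, where they did. MI libraries overlapped with spermatids in both genotypes, so these neighbours in the order do not differ beyond their spread. Rmrp was high in the groups where somatic markers (MII) and immune markers (spermatogonia and MII) were high. Marker sums are given as a range over the libraries of a group, so whether they follow Rmrp from library to library was not examined. In wild-type MII the Leydig markers summed to 876 to 1380 FPKM, with Rmrp at 4790 and 1941 FPKM. In Tex10-deficient MII they summed to 1224 to 1442 FPKM, with Rmrp at 8706 and 912.6 FPKM. In spermatogonia the immune markers summed to 311 to 455 FPKM in the wild type and 199 to 303 FPKM in Tex10-deficient cells, where Rmrp was higher. The markers are a description of the libraries. Their part in the result was not tested.

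Rmrp ranked first among all genes in 6 of the 16 libraries. In the first wild-type spermatogonia library it stood narrowly above the histone gene Hist1h2aa (11037 against 10547 FPKM), and in the second Hist1h2aa stood above it (11318 against 7559 FPKM). In both Tex10-deficient spermatogonia libraries Rmrp ranked first by a wide margin, with Hist1h2aa next at 4185 and 5098 FPKM. It also led both wild-type MII libraries and the first Tex10-deficient MII library, each time with Dcn, a proteoglycan of connective tissue, in second place. In MI spermatocytes its rank ran from 4 to 435, and in spermatids from 336 to 1090. As a share of the summed FPKM of a library it ran from 0.0213% in a spermatid library to 7.75% in a spermatogonia library. Of 46 genes in the table with a longest transcript of at most 400 bases, Rmrp had the highest mean over the libraries (4193 FPKM), followed by Hist1h2aa (2282 FPKM), and the median of the 46 was 8.45 FPKM.

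The replicates of a group disagreed on Rmrp more than on nearly all other genes in 3 groups. On the log2(FPKM + 1) scale the replicates were 3.46 apart in wild-type MI, 3.10 in Tex10-deficient MI and 3.25 in Tex10-deficient MII spermatocytes. Counting Rmrp itself, 4, 7 and 8 of 13099 genes were that far apart, with Rpph1 among them in both Tex10-deficient groups. In the other 5 groups the difference was 0.32 to 1.30, and at least 1443 of the 13099 genes were as far apart. Replicate 1 was the higher in 7 of 8 groups, all but Tex10-deficient spermatogonia.

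Rpph1, the RNase P RNA, was higher in replicate 1 in all 8 groups. Its levels were 307.7 and 237.0 FPKM in wild-type spermatogonia, 29.2 and 16.8 in MI, 252.1 and 105.7 in MII and 42.2 and 10.5 in spermatids. In Tex10-deficient cells Rpph1 stood at 498.7 and 284.0 FPKM (spermatogonia), at 82.7 and 8.48 (MI), at 817.2 and 50.3 (MII) and at 22.2 and 10.5 (spermatids). Its group means, like those of Rmrp, were high in spermatogonia and MII and low in MI and spermatids in both genotypes. In Tex10-deficient cells the MII and MI libraries of Rpph1 overlapped, with MII replicate 2 (50.3 FPKM) below MI replicate 1 (82.7 FPKM). Among the other small non-coding RNAs with a row, Scarna6, a guide RNA of Cajal bodies, was also higher in replicate 1 in 8 of 8 groups. Scarna13 was so in 6 of 8, and Rprl3, an RNase P RNA-like gene, in 6 of 8 with equal values in the other 2. The minor spliceosome RNA Rnu12 and the telomerase RNA Terc were so in 4 of 8 each.

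**Figure D2:**
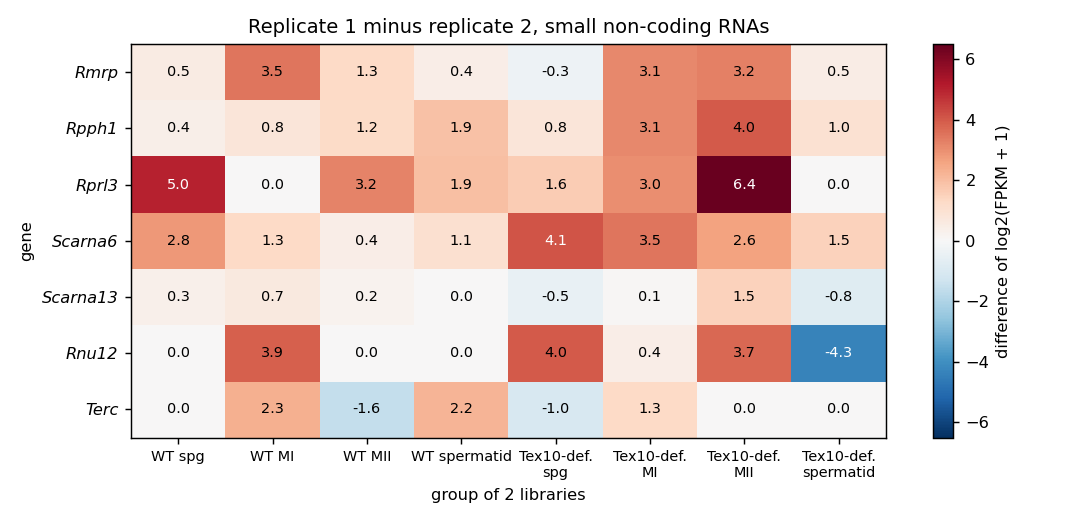
Difference of log2(FPKM + 1) between replicate 1 and replicate 2 for Rmrp and 6 other small non-coding RNAs (rows) in each of the 8 groups (columns), printed in each cell and coloured from blue (replicate 2 higher) to red (replicate 1 higher). Rmrp and Rpph1 are both over 3 apart in Tex10-deficient MI and MII spermatocytes.

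Between genotypes, mean Rmrp in Tex10-deficient cells was 1.503-fold that of the wild type in spermatogonia and 1.70-fold in spermatids, with no overlap of the libraries. At 2 libraries a group, genotypes did not overlap for 36.4% of all genes tested in spermatogonia and for 27.5% in spermatids. In MI and MII spermatocytes the ratios were 1.26 and 1.43 and the libraries overlapped. Leaving out 1 library turned the direction in both: the log2 ratio of means ran from -1.93 to 2.93 in MI, the highest value without wild-type replicate 1 and the lowest without Tex10-deficient replicate 1. In MII it ran from -1.88, without Tex10-deficient replicate 1, to 1.37, without Tex10-deficient replicate 2. Grouped by the labels' cell type field, which puts Tex10-deficient libraries of different titles together, the log2 ratio was 0.18 in spermatogonia, 3.42 in MI, -1.75 in MII and 0.55 in spermatids.

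The mRNAs of the 8 protein genes stood far lower than Rmrp, at 0 to 48.7 FPKM, and did not share one pattern over the cell types. Pop1, Rpp14, Rpp40 and Pop7 had their highest wild-type mean in spermatogonia and their lowest in spermatids. Rpp30, Rpp38 and Pop4 had theirs in MI spermatocytes or spermatids. Rpp25 was high in the MII libraries and low everywhere else. In wild-type cells, 5 of the 8 were called between spermatogonia and MI (limma, Benjamini-Hochberg adjusted p under 0.05 over all 13099 genes), 3 between MI and MII, 7 between MII and spermatids and 2 between MI and spermatids. The same steps called 51.9%, 57.2%, 73.8% and 42.3% of all genes, and the members' shares of 5, 3, 7 and 2 in 8 do not stand far from this background.

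**Figure D3:**
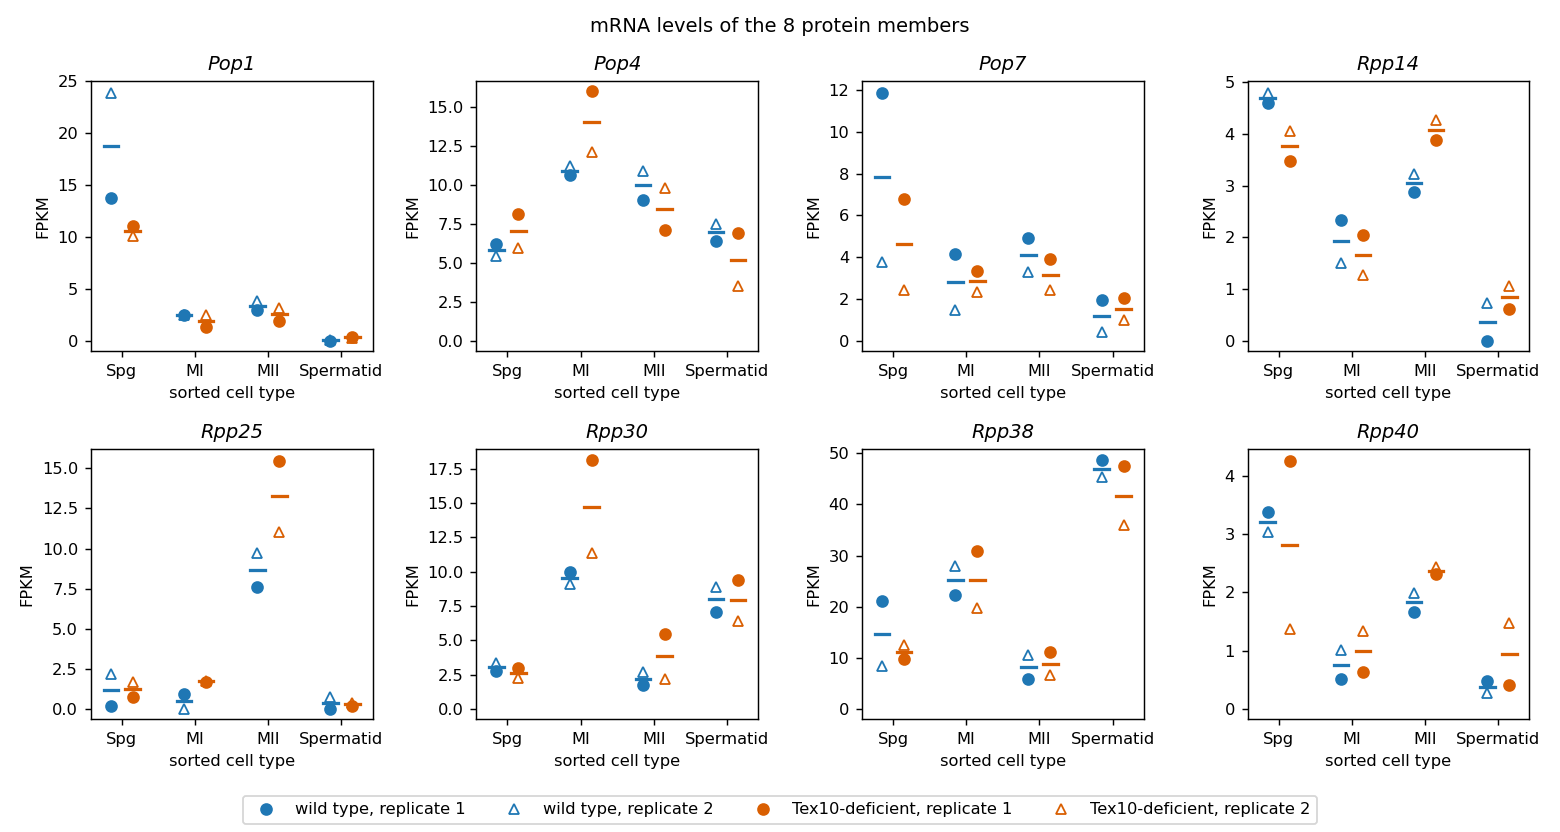
FPKM of the 8 protein genes (1 panel each, linear axes of different range) in every library by sorted cell type, with filled circles for replicate 1, open triangles for replicate 2 and lines at group means, wild type in blue and Tex10-deficient in orange. Pop1 and Rpp14 are lowest in spermatids, Rpp38 is highest there, and Rpp25 stands out in the MII libraries.

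Pop1 encodes the largest protein subunit of both enzymes. It lies on chromosome 15 at 34495304 to 34530648, plus strand. Wild-type spermatogonia held 13.8 and 23.8 FPKM, MI spermatocytes 2.48 and 2.47, MII spermatocytes 2.95 and 3.82, and spermatids 0 and 0.122 FPKM. Tex10-deficient values were 11.04 and 10.1 FPKM in spermatogonia, 1.35 and 2.51 in MI, 1.95 and 3.15 in MII and 0.358 and 0.300 in spermatids. All 4 spermatogonia libraries stood above all others, and all 4 spermatid libraries stood below all others. On the log2(FPKM + 1) scale, which understates the change of low genes, wild-type Pop1 fell by 2.46 ± 0.33 (SE, n = 2 against 2, limma adjusted p = 4.1e-05) from spermatogonia to MI. It was lower again in spermatids than in MI, with a change of -1.71 ± 0.33 (limma adjusted p = 0.00085). From MII to spermatids it fell by 2.04 ± 0.33 (limma adjusted p = 7.5e-05). These calls held in Tex10-deficient cells, with changes of -2.01, -1.11 and -1.40.

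Rpp14, a small subunit gene on chromosome 14 at 8080367 to 8091834, plus strand, had a similar profile at lower levels. Its wild-type values were 4.597 and 4.783 FPKM for spermatogonia, 2.34 and 1.51 in MI, 2.87 and 3.22 in MII and 0 and 0.728 in spermatids. In Tex10-deficient cells Rpp14 stood at 3.48 and 4.06 FPKM in spermatogonia, at 2.04 and 1.28 in MI, at 3.88 and 4.27 in MII and at 0.622 and 1.06 in spermatids. Spermatids were below all other libraries in both genotypes, and in the wild type spermatogonia were above all others. The wild-type change from spermatogonia to MI was -0.97 ± 0.32 (limma adjusted p = 0.020), that from MI to spermatids -1.14 ± 0.32 (limma adjusted p = 0.011) and that from MII to spermatids -1.62 ± 0.32 (limma adjusted p = 0.00040). The first was lost without either wild-type spermatogonia library or wild-type MI replicate 2 (adjusted p of 0.064, 0.075 and 0.15) and with a pseudocount of 0.1 (0.18). The second was lost without wild-type MI replicate 1 or wild-type spermatid replicate 1 (0.098 and 0.14) and was not called in Tex10-deficient cells (-0.53).

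Rpp40 lies on chromosome 13 at 35893472 to 35906359, minus strand, and overlaps 903 bases of an unlisted lincRNA on the other strand. It held 3.37 and 3.04 FPKM in wild-type spermatogonia, 0.508 and 1.01 in MI, 1.67 and 1.995 in MII and 0.476 and 0.270 in spermatids. Tex10-deficient spermatogonia were split, at 4.26 and 1.38 FPKM, with 0.627 and 1.34 in MI, 2.31 and 2.44 in MII and 0.406 and 1.47 in spermatids. In the wild type the order ran from spermatogonia through MII to MI and spermatids, and the last step was not called (-0.35 ± 0.39). From spermatogonia to MI it fell by 1.27 ± 0.39 (limma adjusted p = 0.013) and from MII to spermatids by 1.05 ± 0.39 (limma adjusted p = 0.024). The first call was lost without wild-type spermatogonia replicate 1 or MI replicate 1 (adjusted p of 0.061 and 0.090) and the second without any 1 of the 4 wild-type libraries it compares (0.053 to 0.11), with a pseudocount of 5 (0.063) and under quantile normalization (-0.18, adjusted p = 0.68). Neither was called in Tex10-deficient cells, where the changes were -0.86 and -0.85.

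Pop7, whose protein binds the RNA component, spans 1081 bases on chromosome 5 at 137501438 to 137502518, minus strand, and lies wholly within the annotated span of Epo on the same strand, a gene with no row in the table. Its wild-type values were 11.9 and 3.79 FPKM in spermatogonia, 4.17 and 1.47 in MI, 4.93 and 3.28 in MII and 1.97 and 0.431 in spermatids. In Tex10-deficient cells Pop7 stood at 6.80 and 2.43 FPKM in spermatogonia, at 3.35 and 2.33 in MI, at 3.91 and 2.41 in MII and at 2.04 and 0.984 in spermatids. Replicate 1 was the higher in every group, and in the wild type spermatids lay below spermatogonia and MII while the other pairs of types overlapped. Of the 4 steps tested in the wild type, that from MII to spermatids was called, at -1.29 ± 0.55 (limma adjusted p = 0.048). It was lost without any of 9 libraries, among them wild-type spermatid replicate 2 (-0.76, adjusted p = 0.32), with a pseudocount of 5 and under quantile normalization (-0.53, adjusted p = 0.46), and was -0.74 and not called in Tex10-deficient cells.

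Rpp38, which binds the RNA component through a ribosomal protein-like fold, showed the opposite course. It lies on chromosome 2 at 3328949 to 3332643, minus strand. Wild-type spermatids held 48.7 and 45.3 FPKM, MI spermatocytes 22.2 and 28.1, spermatogonia 21.1 and 8.41 and MII spermatocytes 5.77 and 10.6 FPKM. Tex10-deficient spermatids held 47.5 and 36.0 FPKM, MI 30.8 and 19.7, spermatogonia 9.76 and 12.6 and MII 11.1 and 6.59. Spermatids stood above all other libraries in both genotypes. From MI to MII wild-type Rpp38 fell by 1.55 ± 0.41 (limma adjusted p = 0.0053), and it was 2.44 ± 0.41 higher in spermatids than in MII (limma adjusted p = 0.00011). The first was lost without wild-type MII replicate 1 (-1.16, adjusted p = 0.063). Spermatids against MI gave 0.89 ± 0.41 (limma adjusted p = 0.097), which did not pass.

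Rpp30, which with Pop5 forms a core pair of the protein part, lies on chromosome 19 at 36083716 to 36104777, plus strand. It held 9.94 and 9.07 FPKM in wild-type MI, 7.07 and 8.88 in spermatids, 2.76 and 3.36 in spermatogonia and 1.74 and 2.66 in MII. Tex10-deficient MI held 18.1 and 11.4 FPKM, spermatids 9.38 and 6.42, spermatogonia 2.97 and 2.23 and MII 5.48 and 2.198. MI and spermatid libraries stood above all spermatogonia and MII libraries in both genotypes. From spermatogonia to MI wild-type Rpp30 rose by 1.37 ± 0.37 (limma adjusted p = 0.0064), from MI to MII it fell by 1.73 ± 0.37 (limma adjusted p = 0.0013), and spermatids were 1.497 ± 0.37 above MII (limma adjusted p = 0.0021). Rescaling all libraries to one total without Rmrp, which brought the median change of all genes from -0.07 to -0.54 between spermatogonia and MI and from 0.11 to -0.69 between MII and spermatids, ended the calls from spermatogonia to MI and from MII to spermatids (0.90 with adjusted p = 0.054, and 0.64 with adjusted p = 0.14). Relative to that median both stayed positive.

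Pop4, an RNA-binding subunit gene at 38261996 to 38271423 on the minus strand of chromosome 7, varied least. Wild-type values were 6.21 and 5.45 FPKM in spermatogonia, 10.6 and 11.2 in MI, 9.05 and 10.9 in MII and 6.37 and 7.52 in spermatids. Tex10-deficient values were 8.14 and 5.93 FPKM in spermatogonia, 16.03 and 12.1 in MI, 7.09 and 9.83 in MII and 6.92 and 3.49 in spermatids. In the wild type, MI and MII stood above spermatogonia and spermatids. From spermatogonia to MI it rose by 0.80 ± 0.32 (limma adjusted p = 0.047), a call at the edge of the threshold that 12 of 28 alternatives ended, leaving out either library of either wild-type group among them (adjusted p of 0.10 to 0.17), as well as rescaling without Rmrp (0.27, adjusted p = 0.47). In Tex10-deficient cells the same step was 0.91, and spermatids stood 1.32 below MI (limma adjusted p = 0.0043).

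Rpp25, which pairs with Pop7 on the RNA, lies on chromosome 9 at 57504026 to 57505448, plus strand. Wild-type MII libraries held 7.59 and 9.73 FPKM, against 0.205 and 2.17 in spermatogonia, 0.935 and 0 in MI and 0 and 0.766 in spermatids. Tex10-deficient MII libraries held 15.4 and 11.1 FPKM, against 0.752 and 1.67 in spermatogonia, 1.68 and 1.74 in MI and 0.197 and 0.391 in spermatids. The 4 MII libraries stood above all others. MII was 2.79 ± 0.46 above MI (limma adjusted p = 0.00022) and the change from MII to spermatids was -2.85 ± 0.46 (limma adjusted p = 8.0e-05). Both calls were kept in all alternatives run. The Leydig markers sum to 876 to 1442 FPKM in the same 4 libraries and to 14.4 to 219 FPKM elsewhere. The Sertoli markers (4 of 7 with a row) sum to 90.7 to 149 FPKM there against 6.42 to 100 FPKM elsewhere, and the myoid and endothelial markers (3 of 5) to 69.5 to 121 against 1.20 to 69.7 FPKM. Their part in the Rpp25 result was not tested.

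**Figure D4:**
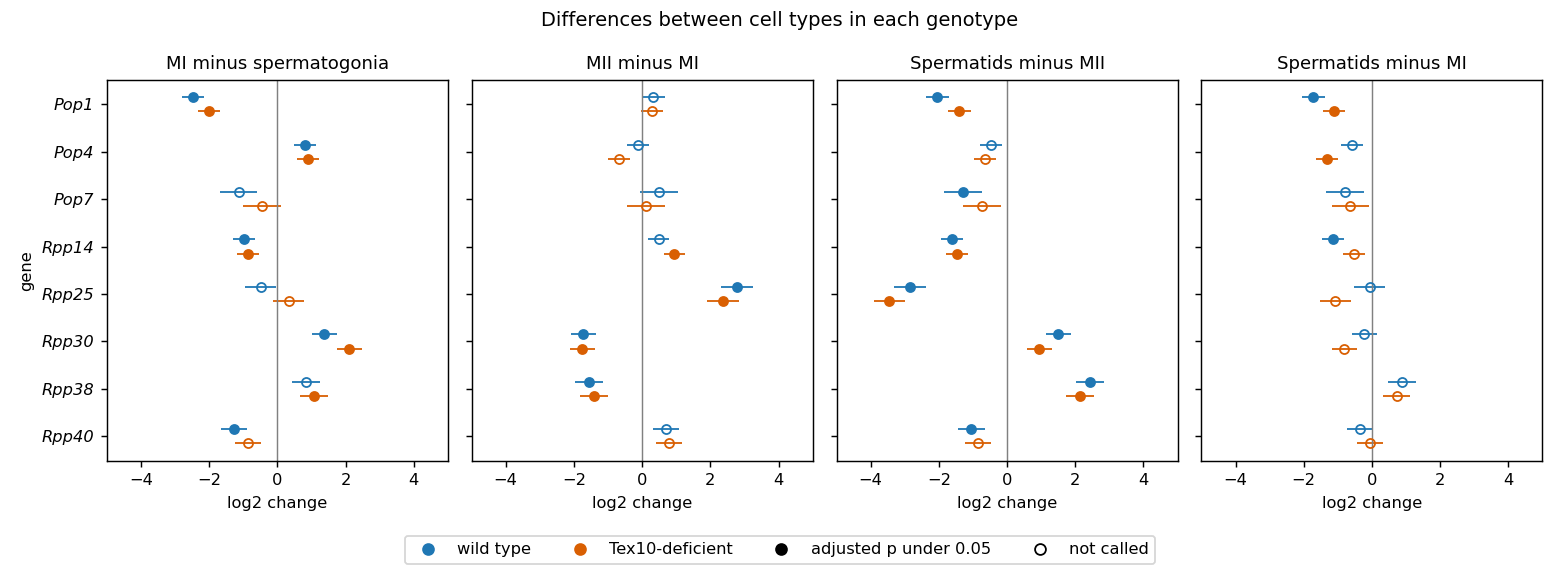
Change between cell types on the log2(FPKM + 1) scale with standard errors for the 8 protein genes (rows) in 4 steps (panels), wild type in blue and Tex10-deficient in orange, filled where the limma adjusted p is under 0.05. Pop1 and Rpp14 lie left of 0 in 3 panels, and Rpp30 and Rpp38 turn from left of 0 for MII against MI to right of 0 for spermatids against MII.

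In Tex10-deficient cells 5, 4, 5 and 2 of the 8 protein genes were called in the same 4 steps (spermatogonia to MI, MI to MII, MII to spermatids and MI to spermatids). The background there was 51.2%, 61.7%, 75.7% and 42.4% of all genes. Rpp38 was called higher in MI than in spermatogonia (1.09, limma adjusted p = 0.039) and Rpp14 higher in MII than in MI (0.94, limma adjusted p = 0.019), neither of which was called in the wild type. Whether these steps differ between genotypes was tested only through the difference of the genotype effect over cell types, which called none of the 8.

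The promoters of 7 of the 8 protein genes had an entry in the RefSeq table (GRCm38.p6), each running from 250 bases before to 50 after the start. Shown are those of Rpp38 and Rpp30, high in MI and spermatids, and of Rpp14, low in spermatids. Capitals mark TGACG or its reverse complement CGTCA, the core of the cAMP response element, to which the factor CREM binds in spermatids. The 3 lie at chr2:3332579-3332878 (minus strand), chr19:36083466-36083765 (plus strand) and chr14:8080063-8080362 (plus strand).
Rpp38: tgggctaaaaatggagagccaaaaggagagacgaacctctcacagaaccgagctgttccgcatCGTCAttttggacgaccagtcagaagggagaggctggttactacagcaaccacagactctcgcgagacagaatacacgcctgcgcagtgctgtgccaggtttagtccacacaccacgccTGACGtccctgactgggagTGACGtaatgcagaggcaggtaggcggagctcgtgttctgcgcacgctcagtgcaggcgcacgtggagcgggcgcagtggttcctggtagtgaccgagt
Rpp30: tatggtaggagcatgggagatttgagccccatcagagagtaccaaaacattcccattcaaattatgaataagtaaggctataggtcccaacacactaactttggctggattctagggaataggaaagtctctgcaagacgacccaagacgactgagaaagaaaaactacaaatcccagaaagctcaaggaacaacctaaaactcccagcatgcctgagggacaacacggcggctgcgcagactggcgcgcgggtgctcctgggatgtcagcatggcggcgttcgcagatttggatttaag
Rpp14: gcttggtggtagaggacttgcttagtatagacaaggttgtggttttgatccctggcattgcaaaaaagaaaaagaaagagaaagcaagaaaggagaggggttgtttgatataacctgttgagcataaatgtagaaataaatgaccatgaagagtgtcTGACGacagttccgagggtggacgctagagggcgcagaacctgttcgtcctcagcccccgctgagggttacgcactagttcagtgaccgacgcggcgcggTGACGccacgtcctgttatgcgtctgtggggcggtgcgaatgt
The core was found on either strand in 21.0% of 27025 promoters of this length and in those of Rpp38 (3 matches), Rpp14 (2) and Pop4 (5), a set that includes a gene high in spermatids and one low there. The Rpp30 window holds none. The whole element TGACGTCA, which contains the core on both strands, was found in 1.88% of promoters and, among these genes, in that of Pop4. The GC box GGGCGG was found on either strand in 35.9% of promoters and in those of Pop7, Rpp25, Rpp40 and Rpp14. Such matches are a description of the letters in these windows.

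Between genotypes none of the 8 protein genes was called in any cell type, on average over cell types, or in the test of a difference between cell types (limma, 0 of 8 in each). The background was small: 0.0153% of all genes were called in spermatogonia, 0.168% in MI, 0.00763% in MII, 0% in spermatids, 0.0992% on average and 0% for the difference. At an unadjusted p under 0.05 the count was 1 of 8 in spermatogonia and 0 of 8 in each of the others, against 865 of 13099 genes in spermatogonia, 765 in MI, 1738 in MII, 284 in spermatids, 1437 on average and 850 for the difference. The log2 changes ran from -0.73 (Pop1 in spermatogonia) to 0.96 (Rpp25 in MI). The SE of a member's change was 0.32 to 0.55. The same test did not call Tex10 itself in spermatogonia, MII or spermatids, so the lack of a call there does not show that a gene is unchanged. Grouped by the labels' cell type field, 1 of 8 was called in MI and 2 of 8 in MII. That grouping called 3241 of 13099 genes in MI and 4899 in MII.

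Pop1 in spermatogonia had wild-type values of 13.8 and 23.8 FPKM and Tex10-deficient values of 11.04 and 10.1 FPKM. Both Tex10-deficient libraries were lower than both wild-type ones, with a change of -0.73 ± 0.33 (limma adjusted p = 0.73, unadjusted p = 0.043), and it ran from -1.11 to -0.36 as single libraries were left out. Rpp14 was also lower without overlap in spermatogonia (-0.26 ± 0.32). Such separation held for 2 of 8 members there, against 36.4% of all genes. In MI it held for Pop4, Rpp25 and Rpp30, all higher in Tex10-deficient cells, against 34% of all genes. Rpp25 in MI had 0.935 and 0 FPKM in the wild type and 1.68 and 1.74 in Tex10-deficient cells, a change of 0.96 ± 0.46 (limma adjusted p = 0.88). In MII it held for Rpp14, Rpp25 and Rpp40, again all higher, against 35.3%, and in spermatids for Pop1, higher at 0.358 and 0.300 FPKM against 0 and 0.122, against 27.5%. The shares of members were near these backgrounds.

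**Figure D5:**
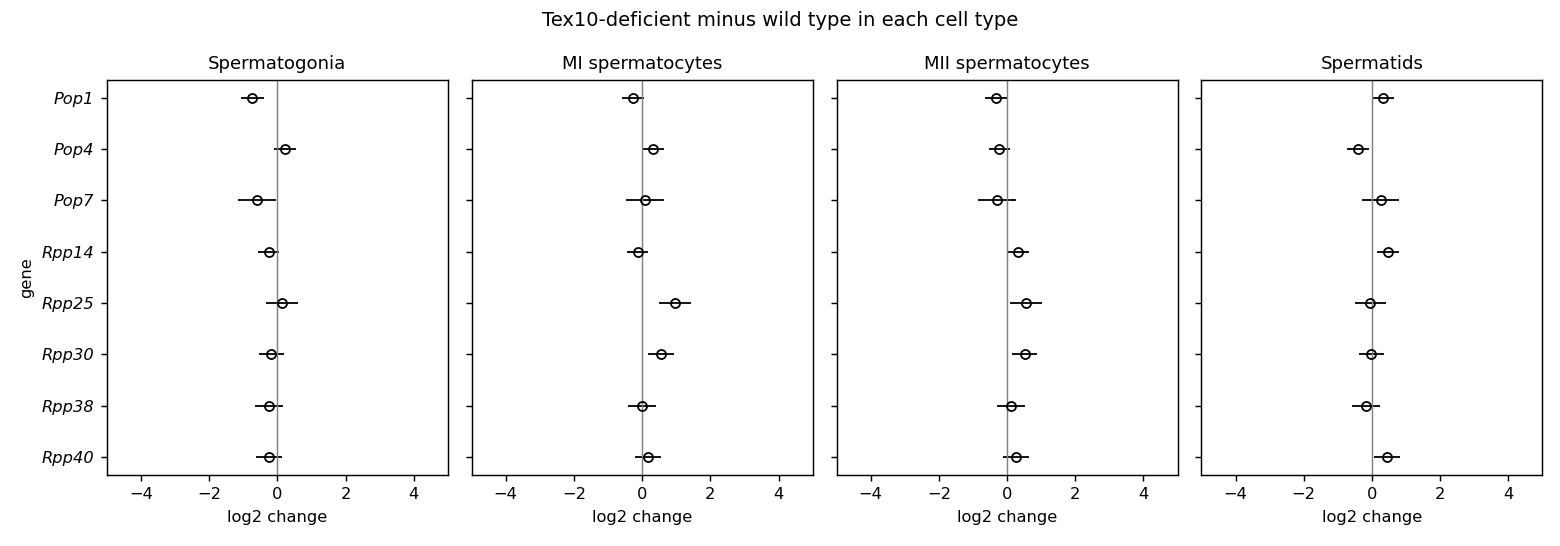
Tex10-deficient minus wild type on the log2(FPKM + 1) scale with standard errors for the 8 protein genes (rows) in each cell type (panels), on the same axis as the steps between cell types, with open circles since none had a limma adjusted p under 0.05. All changes lie between -0.73 and 0.96.

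Genes of the wider pathways were counted from lists of named genes. Of 3 further nuclear RNase P genes (Rpph1, Rpp21 and Rpp25l), 2 were lower in wild-type MI than in spermatogonia, Rpph1 and Rpp25l, and the median change of the 3 was -1.08 against -0.07 for all genes. Of 6 genes of mitochondrial RNase P and tRNA ends, 1 was higher and 3 were lower in that step (median -0.84), in which 51.9% of all genes were called. Hsd17b10, a subunit of mitochondrial RNase P, had the smallest p of them. It held 16.9 and 6.70 FPKM in spermatogonia and 0.186 and 0.537 in MI, a change of -3.12 ± 0.45 (limma adjusted p = 8.3e-05). Ssb, the La protein that binds the 3′ ends of new polymerase III transcripts, held 60.9 and 44.2 FPKM in wild-type MI and 8.55 and 8.68 in spermatids, a change of -2.46 ± 0.36 (limma adjusted p = 0.00010).

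Of 21 pre-rRNA nucleases and exosome genes, 2 were higher and 9 lower in MI than in spermatogonia (median -0.72), and 5 were higher and 6 lower in spermatids than in MI (median -0.22 against -0.01 for all genes). The background was 51.9% and 42.3% of all genes called, in either direction. Las1l and Nol9, which act together in cleaving the second internal spacer of pre-rRNA, were both among those called. Las1l held 10.1 and 8.52 FPKM in wild-type spermatogonia and 2.36 and 1.84 in MI (-1.73 ± 0.28, limma adjusted p = 0.00017). Nol9 held 10.02 and 8.04 FPKM in MI and 1.32 and 1.66 in spermatids (-2.01 ± 0.26, limma adjusted p = 3.8e-05). Both proteins associate with the complex to which the Tex10 protein belongs.

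Of 30 genes of RNA polymerase III and its factors, 6 were higher and 9 lower in MI than in spermatogonia (median -0.29). In spermatids against MI, 2 were higher and 8 lower (median -0.49). The background in these steps was the same 51.9% and 42.3% of all genes. Crcp, a polymerase subunit, rose from 6.30 and 6.01 FPKM to 34.8 and 30.7 (2.24 ± 0.27, limma adjusted p = 1.9e-05). Gtf3a, the 5S RNA gene factor, fell from 68.0 and 55.0 FPKM to 13.9 and 6.83 (-2.53 ± 0.32, limma adjusted p = 2.8e-05). Polr3b, the second largest subunit, held 10.3 and 10.2 FPKM in MI and 1.02 and 1.59 in spermatids (-2.30 ± 0.29, limma adjusted p = 2.8e-05). In both steps these 3 lists held genes called in each direction. Of 6 small non-coding RNAs other than Rmrp, Rpph1 counted again among them, 0 were higher and 3 lower in MI than in spermatogonia, and 0 were called between MI and spermatids (limma, smallest adjusted p = 0.33). No gene of any of these lists was called between genotypes in any cell type.

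Over the 16 libraries, Rmrp was most like Mlf2 and Ube2e1 (r = 0.942 each), Pdia4 (0.941), Papd7 (0.940) and Adrbk1 (0.939) among 8110 genes with a mean of at least 5 FPKM. Members and genes with predicted names (Gm, LOC, Rik or accession-like symbols) were left out of these 8110. The r is Pearson's on log2(FPKM + 1) and is a description, since the libraries share cell types. Most like the mean of the protein genes were Zbtb16 (0.949), a marker of spermatogonia, Myo9b (0.948), Snapc4 (0.941), Ddx39b (0.936) and Usp5 (0.935). Among the members themselves, Rmrp lay nearest to Rpp14 (0.853), Pop1 (0.795) and Pop7 (0.788) and ran against Rpp38 (-0.707) and Rpp30 (-0.626). Rpp14 and Rpp38 were the most opposed pair (-0.833), and Rpp30 and Rpp38 ran together (0.760).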

How the data were processed

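RNA of 16 libraries was compared in 8 groups of 2, set by sample title. The submitters' processing notes name STAR 2.7.6a, Cufflinks 2.2.1, FastQC 0.10.1, cutadapt and Trim Galore 0.6.3, and build mm10. The authors' annotation, gene filter, strand use and scaling are not given in these sources. The deposited values are FPKM to which the authors had added 1, which was subtracted here. Of 13101 genes, 1 with a letter in a cell was left out, and 3.33% of values were 0. Only FPKM were used, so the depth is unknown, no counting interval is given, and FPKM totals (187713 to 533859) are not a depth.

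The 13099 genes that reached 1 FPKM in 2 or more libraries were fitted as log2(FPKM + 1) in one limma 3.58.1 model (R 4.3.3; lmFit, eBayes with trend) of 8 groups with 8 residual degrees of freedom. P-values were two-sided and Benjamini-Hochberg adjusted over all genes, with calls under 0.05. The model was tested on simulated data. The named genes were all members, the likeness genes and, per list of other genes, those of smallest adjusted p. Members and lists were chosen with earlier results of these data known. Positions and transcripts are from GENCODE M21, matched by symbol. Replicates with equal numbers were checked for pairing by the correlation of their deviations, which was positive in 23 of 28 pairs of groups. The labels name no animal or batch shared by equal numbers, and with 2 numbers a group the main model was left without the block, which was kept as an alternative. Alternatives covered pseudocounts of 0.1 and 5, a filter of 5 FPKM, other scalings, the replicate block, the labels' cell type field and leaving out each library.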

Additional observations from a re-analysis of the deposited data

Results flagged for a closer look

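For 2 protein genes the libraries of both genotypes moved apart in opposite directions in a pair of cell types, and the difference between the pair was not tested by itself. Pop1 was lower in both Tex10-deficient spermatogonia libraries than in both wild-type ones (-0.73 on the log2 scale) and higher in both spermatid libraries (0.33), a difference of 1.06. Rpp14 was lower in spermatogonia (-0.26) and higher in MII spermatocytes (0.33), a difference of 0.583. The limma test of the genotype effect over all 4 cell types gave adjusted p = 0.96 for Pop1 and 0.9999 for Rpp14. With 2 libraries a group, separation without overlap is common, as the backgrounds of 27.5% to 36.4% of all genes show.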

How the results depend on the processing

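No call of a member reversed under any alternative. The count of 5 protein genes called from spermatogonia to MI was 3 with a pseudocount of 0.1 and 3 with a filter of 5 FPKM, which leaves Rpp14 and Rpp40 untested. That pseudocount called 6565 of 13099 genes in this step and that filter 6357 of 11824, against 6800 of 13099 as reported. The count of 2 from MI to spermatids was 1 with that filter, Rpp14 again being untested, and 4 after rescaling to one total without Rmrp. That rescaling called 6260 of all genes in this step, against 5543 as reported. Over all genes, alternatives other than left-out libraries and the field called 6357 to 7931 from spermatogonia to MI and 6318 to 7878 from MI to MII. They called 8924 to 9921 from MII to spermatids and 4588 to 6665 from MI to spermatids. Grouped by the labels' cell type field, 1 protein gene was called between genotypes in MI, 2 in MII and 2 for the difference between cell types, and the log2 ratio of mean Rmrp was 0.18 in spermatogonia, 3.42 in MI and -1.75 in MII. That grouping called 3241, 4899 and 5138 of all genes in those 3 tests.

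Leaving out 1 library gave 3 to 5 calls from spermatogonia to MI, 2 to 3 from MI to MII, 5 to 7 from MII to spermatids, 1 to 2 from MI to spermatids and 0 to 0 between genotypes. In these fits the counts over all genes moved as well, so a shift in the members' counts need not be particular to them. The lone library left in a group is assumed to vary like the other groups. The low counts of 3 came without wild-type spermatogonia replicate 1 or either wild-type MI library, those of 1 without wild-type MI or spermatid replicate 1. The log2 ratio of mean Rmrp ran from 0.34 to 0.89 in spermatogonia, -1.93 to 2.93 in MI, -1.88 to 1.37 in MII and 0.49 to 0.999 in spermatids. The calls on Pop1 and Rpp25 were kept under all alternatives run, and those on Rpp30 under all but rescaling.

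With the replicate block 6 protein genes were called from spermatogonia to MI (Pop7 was gained, at -1.13 with limma adjusted p = 0.0086 against 0.10 without the block), 3, 7 and 2 in the other steps and 0 between genotypes. Over all genes the block moved the genotype count in MII from 1 to 268. The deviations of same-numbered libraries correlated positively in 23 of 28 pairs of groups (0.143 to 0.358 among the wild-type groups, at most 0.418), and all 5 negative values (down to -0.217) involved the Tex10-deficient spermatids. Between the spermatid groups the value was -0.127, and crossing the numbers there, chosen after seeing the data, gave 0 calls over all genes against 1 with the block uncrossed. Comparing the steps in Tex10-deficient libraries was also chosen after seeing the data. Over all genes, alternatives other than left-out libraries and the field gave 0 to 34 genotype calls in spermatogonia (2 as reported), 0 to 67 in MI (22), 0 to 268 in MII (1), 0 to 3 in spermatids (0), 5 to 20 on average (13) and 0 to 5 for the difference (0). Leaving out 1 library gave 0 to 35, 0 to 47, 1 to 1253, 0 to 1, 5 to 512 and 0 to 255 in that order. The counts of 1253, 512 and 255 came without wild-type MII replicate 1, that of 35 without wild-type spermatogonia replicate 1 and those of 47 without either 1 of the wild-type MII libraries, and without Tex10-deficient MII replicate 2 the MII count was 237.

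Rescaling without Rmrp set all libraries to one FPKM total, where totals without Rmrp had run from 175289 to 533746 FPKM. Rmrp itself was at most 7.75% of a library's total. This rescaling moved the share of calls that were higher from 50.6% to 33.7% from spermatogonia to MI and 52.5% to 58.7% from MI to MII. It moved that share from 52.6% to 34.6% from MII to spermatids and from 53.3% to 26.3% from MI to spermatids. No named step of a member changed direction relative to the median of all genes under the scalings tried. Only 2 libraries a group limit the precision.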
